A study of Mus musculus with 2 samples.

Results

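Classical cadherins and the protocadherins outside the gene clusters are adhesion proteins of the cell surface, and their RNA was measured here in the cell classes of the mouse cortex at embryonic day 16.5. The genes were taken by symbol, as every gene of the deposited matrices named *Cdh* or *Pcdh* plus a number, with *Pcdh11x* included. This gave 35 of the 32285 genes in the matrices, 23 cadherins and 12 protocadherins. The data come from 2 embryos that carry the numbers 4 and 5, 1 library each, of genotype WT. Both are control animals of the *Eomes*-Cre line, and no condition was compared. The labels give the tissue as brain hemispheres and the dissected part as cortex, and they do not say whether the embryos shared a litter. Whether the animals carried a Cre allele is not stated in the labels.

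Cadherins hold cells together through repeats outside the cell that bind the same or a related cadherin on the neighbour. Type I cadherins, such as N-cadherin (*Cdh2*), and type II cadherins reach the actin skeleton through β-catenin and α-catenin, while *Cdh13* (T-cadherin) has no tail inside the cell and is held by a lipid anchor. The δ-protocadherins bind more weakly and fall into a δ-1 group (*Pcdh1*, *Pcdh7*, *Pcdh9*, *Pcdh11x*) and a δ-2 group (*Pcdh8*, *Pcdh10*, *Pcdh17*, *Pcdh18*, *Pcdh19*), the latter with tails that bind the WAVE complex of actin control. In the cortex, these families are known for the junctions between radial glia at the ventricle, for migration, and for the sorting of neurons and their axons.

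The libraries held 12825 barcodes with 124318613 UMIs (unique molecular identifiers, tags of single RNA molecules) in embryo 4 and 12289 barcodes with 117679925 UMIs in embryo 5, and 46 barcodes were found in both. After removal of poor cells and likely doublets, 9932 and 10416 cells stayed, with a median of 10027 and 8825 UMIs. The cells were clustered without the 35 genes, clusters were named "like" a cell type from known markers, and UMIs were summed per class and embryo. The levels below are CPM, the UMIs of a gene relative to all UMIs of that class in that embryo. Of 23 clusters, 15 were named and 8, with 27.3% and 28.6% of the cells, were not. The classes were radial glial cell (RGC)-like with 1343 and 1422 cells in embryos 4 and 5, intermediate progenitor (IPC)-like with 971 and 988, immature excitatory neuron-like with 1669 and 1680, upper-layer neuron-like with 948 and 1086, layer 6-like with 822 and 865 and layer 5-like with 359 and 357. Interneuron-like cells were split into those of the medial (MGE, 672 and 645) and caudal ganglionic eminence (CGE, 195 and 152). Small classes were Cajal-Retzius-like (77 and 66), mural-like (52 and 47) and a haemoglobin-led class (110 and 76).

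Most classes held their defining markers. *Eomes* was at 639 and 725 CPM in IPC-like cells, *Tle4* at 982 and 1209 in layer 6-like cells, *Sst* at 659 and 783 in MGE interneuron-like cells and *Adarb2* at 7554 and 9600 in CGE interneuron-like cells. The layer 5-like name is the weakest. Its mean log2 ratio of markers over all other cells was 0.509 against a limit of 0.5, and *Bcl11b*, a defining marker of layer 5, was at 565 and 611 CPM there against 928 and 985 in layer 6-like cells, while *Crym* was at 114 and 96.9 against 20.9 and 27.3. The counts of the 35 genes that rest on this class are therefore given with and without it, while the partner lists further down were counted with it only. The haemoglobin-led class had low depth (medians of 3357 and 2503 UMIs) and held neuronal RNA, with *Sst* at 527 and 689 CPM. Its levels, among them 243 and 178 CPM of *Cdh2*, 139 and 138 of *Pcdh9* and 67.2 and 102 of *Cdh13*, are not read as expression by blood cells, and the part of free RNA in them was not tested.

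Of the 35 genes, 20 reached 50 CPM in both embryos in at least 1 of the 11 classes, and for 17 of these the lower embryo of the highest class lay above both embryos of the next class. The exceptions were *Cdh2*, *Pcdh15* and *Pcdh17*. Each gene passed the limit through a class where it was high, which favours such a gap. The share among all genes was not computed, so the 17 are a description only. The highest level was in Cajal-Retzius-like cells for 4 genes (*Cdh4*, *Cdh7*, *Cdh18*, *Pcdh11x*), in layer 6-like cells for 4 (*Cdh2*, *Cdh11*, *Cdh13*, *Pcdh9*), in immature excitatory neuron-like cells for 3 (*Cdh8*, *Cdh10*, *Pcdh7*), and in RGC-like (*Cdh6*, *Cdh20*), upper-layer neuron-like (*Cdh12*, *Pcdh10*), MGE interneuron-like (*Pcdh15*, *Pcdh19*) and mural-like cells (*Pcdh1*, *Pcdh18*) for 2 each. *Pcdh17* was highest in layer 5-like cells. Summed over all 35 genes, the level was lowest in the haemoglobin-led class (843 ± 105 CPM, SD, n = 2) and mural-like cells (1846 ± 152). It was highest in layer 6-like cells (9276 ± 308). Most of the sum there came from *Pcdh9*, *Cdh13* and *Cdh2*, with means of 3558, 2703 and 1125 CPM.

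**Figure D1:**
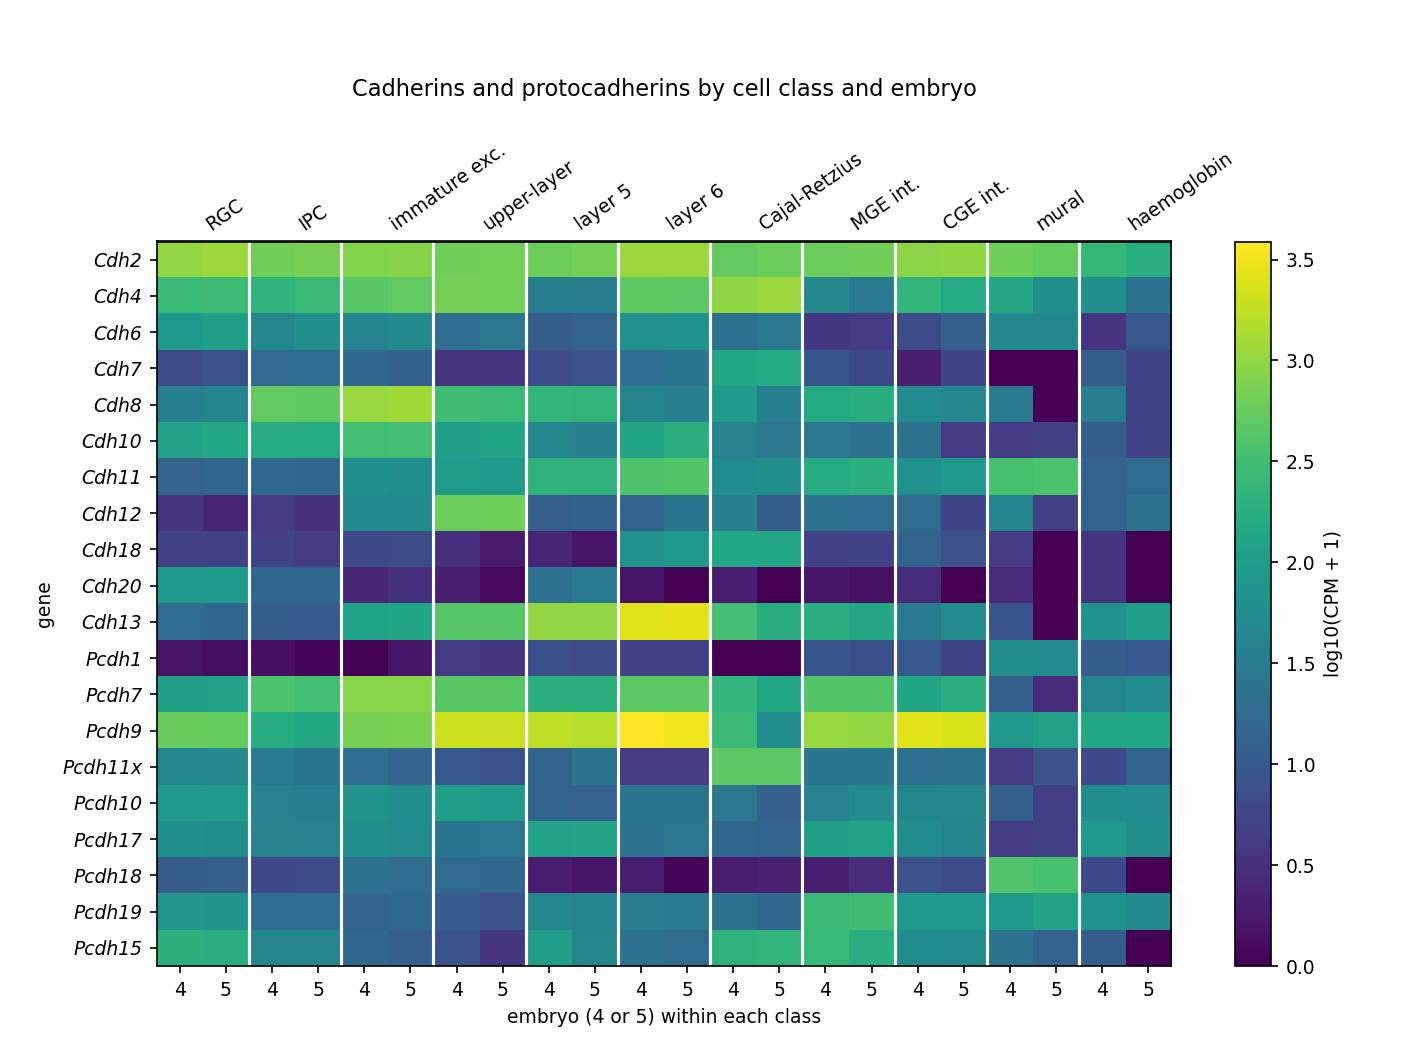
Levels of the 20 genes that reached 50 CPM, as log10(CPM + 1) in colour, with genes in rows by subfamily and the 11 classes in columns, embryo 4 beside embryo 5. *Cdh2* is bright in every class, while *Cdh12*, *Cdh20*, *Pcdh11x* and *Pcdh18* are bright in 1 or 2 classes and dark in most others, in both embryos.

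On the GRCm38.p6 assembly, all 35 genes were found in the RefSeq table and lie on 11 chromosomes. Chromosome 8 holds 8 of them, and chromosomes 14 and 15 hold 5 each. On chromosome 15, *Cdh6* (13028699 to 13176407), *Cdh9* (16728550 to 16857138), *Cdh10* (18818869 to 19016206), *Cdh12* (20448878 to 21598421) and *Cdh18* (22548898 to 23477491) follow each other. These type II neighbours had different highest classes: RGC-like for *Cdh6*, immature excitatory neuron-like for *Cdh10*, upper-layer neuron-like for *Cdh12* and Cajal-Retzius-like for *Cdh18*, with *Cdh9* under 50 CPM everywhere.

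Differences between classes were tested in 1 fit over the 22 class sums and 15755 genes (edgeR's quasi-likelihood test, Benjamini-Hochberg adjusted, called at an adjusted p under 0.05), and 27 of the 35 genes had enough UMIs to be tested. Each value of a fold change is on the log2 scale and is given ± its standard error (SE) from this fit, with 2 embryos a class. The fit shares 1 estimate of the spread per gene over all classes. The SE is therefore not the spread seen between the 2 embryos of the classes compared. Because many genes differ between cell classes, the share of all tested genes that was called stands beside each first count.

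From RGC-like to IPC-like cells, the first step of the excitatory lineage, 13 of the 27 genes were higher in RGC-like cells and 5 were higher in IPC-like cells, where 24.7% and 22.9% of all tested genes were called in these directions. All 5 δ-2 protocadherins were higher in RGC-like cells. *Cdh20*, a type II cadherin, stood at 87.8 and 96.2 CPM in RGC-like cells against 15.2 and 14.8 CPM in IPC-like ones, a difference of 2.55 ± 0.18. *Pcdh15*, known from the tip link of hair cells together with *Cdh23*, was at 200 and 179 against 42.7 and 42.4 CPM (2.09 ± 0.23). In both genes the embryos of the 2 classes stood far apart from each other, but both were picked as called. *Pcdh19*, a δ-2 protocadherin on the X chromosome, was at 75.8 and 70.7 against 18.0 and 18.1 CPM (1.96 ± 0.13), and *Pcdh9* at 577 and 553 against 164 and 151 CPM (1.78 ± 0.27). *Pcdh10* differed by 1.23 ± 0.13, *Pcdh18* by 0.92 ± 0.21 and *Pcdh17* by 0.61 ± 0.10. *Pcdh8*, never above 50 CPM in both embryos, differed by 1.41 ± 0.23.

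*Cdh2*, the N-cadherin of the junctions between radial glia, was at 1028 and 1130 CPM in RGC-like cells against 656 and 724 CPM in the IPC-like class, and its difference of 0.59 ± 0.12 was much smaller than those above. *Cdh4* (R-cadherin), the other type I cadherin with a high level, was at 270 and 284 against 217 and 260 CPM and did not pass the test (0.16 ± 0.17, adjusted p = 0.481 with edgeR). *Cdh6* was higher in RGC-like cells by 0.83 ± 0.14 and *Pcdh11x* by 0.79 ± 0.14. *Cdh13* passed narrowly (0.60 ± 0.24), with 17.8 and 14.3 against 10.5 and 9.77 CPM, and was not called without embryo 4 or without embryo 5. The same holds for *Cdh23*, at 4.06 and 4.14 against 1.62 and 1.41 CPM (1.36 ± 0.38).

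The reverse pattern was led by *Cdh8*, a type II cadherin, at only 32.8 and 40.5 CPM in the RGC-like class against 511 and 502 CPM in IPC-like cells, a difference of -3.85 ± 0.21. *Pcdh7*, a δ-1 protocadherin, rose from 109 and 117 to 375 and 318 CPM (-1.68 ± 0.15), and *Cdh7* was at 5.90 and 7.12 against 17.2 and 17.8 CPM (-1.48 ± 0.18). Both embryos showed each of these directions. *Cdh10* was at 117 and 135 against 164 and 165 CPM (-0.44 ± 0.14), a call that was lost without embryo 4 (-0.34) and in 6 other alternatives, down to -0.010 (adjusted p = 0.975 with edgeR) with at least 2000 genes a cell. The fifth gene, *Pcdh20*, had at most 1.82 CPM in these classes, and without embryo 4 it was not called either, which leaves 3.

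Both progenitor classes were made of a cluster without and a cluster with leading genes of the cell cycle, and several members differed between them. *Cdh20* was at 66.4 and 64.7 CPM in the RGC-like cluster led by *Tnc* and at 114 and 128 CPM in the cycling one, and at 4.64 and 5.67 against 45.5 and 39.2 CPM in the IPC-like clusters. *Pcdh15* was at 168 and 130 against 240 and 229 CPM in the RGC-like clusters but at 52.6 and 52.5 against 14.1 and 15.5 CPM in the IPC-like ones. *Pcdh7* was lower in the cycling IPC-like cluster (220 and 173 CPM) than in the other (429 and 373 CPM) and higher in the cycling RGC-like cluster (138 and 155) than in the other (86.0 and 79.3). Clusters were built from the same cells, so these are levels with no test.

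From IPC-like to immature excitatory neuron-like cells, 15 of the 27 genes were higher in the immature neurons and 4 were higher in IPC-like cells, against 20.5% and 20% of all tested genes. Most members thus had a higher level on the side of the young neurons. *Cdh8* was at 1097 and 1183 CPM in immature neurons, the highest level of this gene in any class, against 511 and 502 in IPC-like cells (-1.29 ± 0.19, where a minus sign means lower in IPC-like cells). *Cdh10* was at 319 and 332 against 164 and 165 CPM (-1.11 ± 0.14), and *Pcdh7* at 908 and 902 against 375 and 318 CPM (-1.50 ± 0.14). Each of these 3 genes was lower in the upper-layer, layer 5-like and layer 6-like classes in both embryos. This holds for the named classes, since *Cdh10* was higher in unnamed clusters led by *Il1rapl2* (542 and 725 CPM) and *Nts* (363 and 415 CPM).

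Other members rose from IPC-like cells into the immature neurons, and *Cdh13*, *Cdh12* and *Cdh11* were near their lowest level in IPC-like cells. *Cdh13* was at 10.5 and 9.77 CPM in IPC-like and 120 and 132 CPM in immature neurons (-3.75 ± 0.23). *Cdh12*, a type II cadherin, was at 3.24 and 2.24 against 52.0 and 50.2 CPM (-4.32 ± 0.32). *Cdh11*, known from bone and from synapses, was at 15.9 and 15.2 against 62.4 and 59.2 CPM (-2.09 ± 0.11). *Pcdh9* was at 164 and 151 against 715 and 733 CPM (-2.32 ± 0.28), so its level fell between RGC-like and IPC-like cells and rose again in the neurons. *Cdh4* differed by -1.14 ± 0.17, and 4 of the 5 δ-2 genes were lower in IPC-like cells, with *Pcdh19* at 18.0 and 18.1 against 13.5 and 15.9 CPM (0.18 ± 0.14) as the one that did not pass. *Cdh2* differed by -0.41 ± 0.12 and was not called without either embryo, like *Cdh18* (-0.68 ± 0.24).

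The 4 genes higher in IPC-like cells were *Cdh20* (15.2 and 14.8 against 1.48 and 2.29 CPM), *Pcdh15* (42.7 and 42.4 against 15.2 and 11.5 CPM), *Pcdh11x* (28.6 and 23.4 against 18.3 and 14 CPM) and *Cdh22*, which was under 5 CPM in both classes. The level of *Cdh20* in IPC-like cells came mostly from the cycling cluster described above. With doublets kept, 1 gene was called in this direction, and with cells thinned to 2000 UMIs 2 were.

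The immature class was itself made of 2 clusters that differed in these genes. The cluster led by *Unc5d* and *Sema3c*, with 917 and 931 cells, had 1561 and 1714 CPM of *Cdh8*, and the cluster led by *Rnd2* and *Luzp2*, with 752 and 749 cells, had 624 and 634 CPM. *Cdh4* was at 673 and 775 against 236 and 236 CPM in the same clusters, and *Cdh10* at 398 and 450 against 240 and 211 CPM. *Cdh13* went the other way, with 19.9 and 13.7 CPM in the first and 222 and 254 CPM in the second, and so did *Cdh12* (27.2 and 35.9 against 77.4 and 64.8 CPM). *Pcdh7* was alike in both, at 875 and 878 against 941 and 927 CPM.

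**Figure D2:**
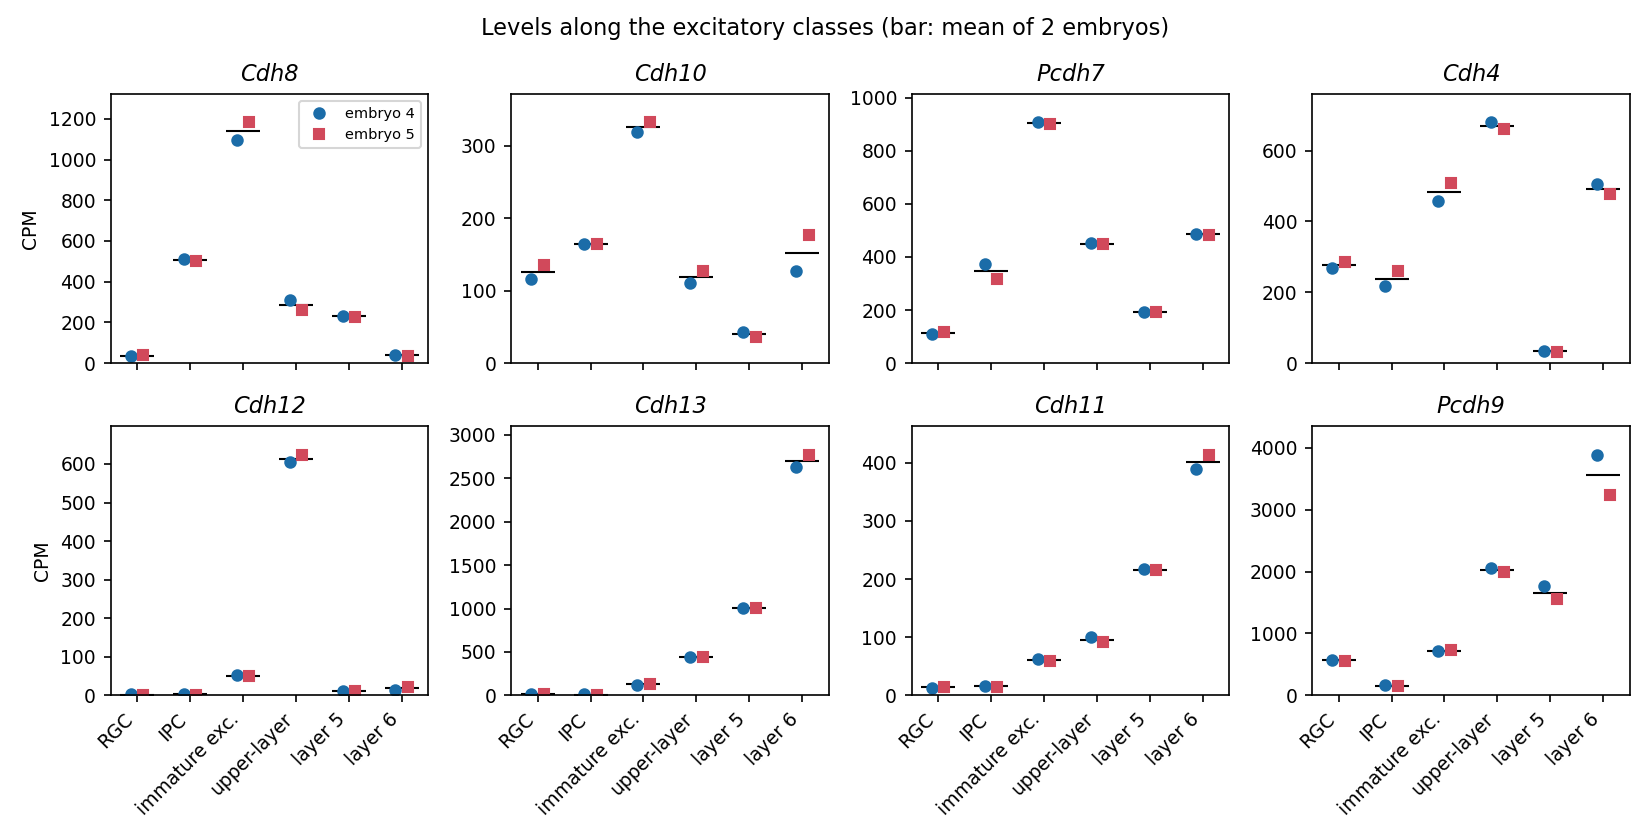
CPM of 8 genes on linear axes that start at 0, in the 6 classes of the excitatory lineage, with a circle for embryo 4, a square for embryo 5 and a bar for their mean. *Cdh8*, *Cdh10* and *Pcdh7* are highest in immature excitatory neuron-like cells, *Cdh12* and *Cdh4* in upper-layer neuron-like cells, and *Cdh13*, *Cdh11* and *Pcdh9* in layer 6-like cells.

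Between neurons of the upper and the deep layers, 8 of the 27 genes were higher in upper-layer neuron-like cells and 13 were lower than in the mean of the layer 5-like and layer 6-like classes, against 19% and 18.9% of all tested genes. With DESeq2's size factors in place of TMM, 39.7% of all called genes were the higher ones, against 50.2% with TMM. The clearest upper-layer gene was *Cdh12*, with 604 and 624 CPM in upper-layer neuron-like cells, 11.1 and 12 in layer 5-like and 13.1 and 22.9 in layer 6-like cells, a difference of 5.38 ± 0.19. *Pcdh10* was at 107 and 96.7 CPM in upper-layer cells against 13.2 and 12.5 and 24.2 and 23.8 CPM in the deep classes (2.50 ± 0.12). *Pcdh18* was at 17.0 and 14.2 CPM against at most 0.953 in either deep class (4.48 ± 0.27). *Cdh8* was at 308 and 261 CPM, above layer 5-like (233 and 226) and layer 6-like cells (40.2 and 35.5), with a difference of 1.57 ± 0.16.

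*Cdh13* and *Cdh11* were higher in both deep classes, though other genes had larger differences. *Cdh13* stood in the order of layer 6-like (2634 and 2772 CPM), layer 5-like (1007 and 1009) and upper-layer neuron-like cells (445 and 445), and its difference between upper and deep classes was -1.92 ± 0.16. *Cdh11* had the same order, with 389 and 414, 217 and 216, and 99.7 and 92.5 CPM (-1.65 ± 0.08). In both genes no embryo of a class overlapped with the next class. They were picked as called, and the share among all genes was not computed. *Pcdh15* and *Pcdh19* were also called lower in upper-layer cells, at 7.44 and 2.71 and at 9.99 and 6.89 CPM. In layer 6-like cells they were at 20.5 and 17.7 and at 32.4 and 30.1 CPM. *Cdh18* was at 67.6 and 81.4 CPM in layer 6-like cells and at most 2.13 CPM in the other 2 classes, so that its call in the mean of the deep classes (-2.59 ± 0.43) came from layer 6-like cells alone. *Pcdh9* was higher in layer 6-like cells (3886 and 3230 CPM) than in upper-layer (2054 and 1997) and layer 5-like cells (1758 and 1559) and did not pass the test against the mean of the deep classes (-0.30 ± 0.23, adjusted p = 0.335 with edgeR).

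Without the layer 5-like class, 30 of the 35 genes were tested. Then 6 were higher and 12 lower in upper-layer than in layer 6-like cells, against 3000 and 3231 of all 16623 genes tested. Of the calls above, 5 of the 8 and 8 of the 13 were shared. *Cdh10* then changed its sign, from 0.58 ± 0.13 to -0.43 ± 0.14, since layer 6-like cells had 127 and 177 CPM against 111 and 127 in upper-layer and 43.5 and 36.1 in layer 5-like cells. *Cdh4* lost its call (from 2.37 ± 0.15 to 0.37 ± 0.17), because it was as low as 32.9 and 32.6 CPM in layer 5-like cells but 505 and 476 CPM in layer 6-like cells, against 680 and 661 in upper-layer cells. *Pcdh7* changed its sign as well, to -0.19 ± 0.14, and did not pass.

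Between the deep classes, 9 genes were higher in layer 5-like and 12 in layer 6-like cells, against 11.9% and 12.3% of all tested genes. The largest differences were near on-off. *Cdh18* was at 1.32 and 0.656 CPM in layer 5-like and 67.6 and 81.4 CPM in layer 6-like cells (-6.29 ± 0.28), and *Cdh20* at 21.3 and 28.0 against 0.572 and 0 CPM (6.16 ± 0.41). *Cdh4* was lower in layer 5-like cells by -4.01 ± 0.21, *Cdh6* by -2.59 ± 0.19 and *Cdh10* by -2.04 ± 0.17. *Cdh8* was higher in layer 5-like cells by 2.49 ± 0.21, *Pcdh11x* by 2.23 ± 0.24 and *Pcdh17* by 2.22 ± 0.11, the last at 116 and 122 against 22 and 25.5 CPM. *Pcdh15* was higher by 1.83 ± 0.27, but its level in layer 5-like cells differed between the embryos, at 101 and 43.5 CPM. Of the type I cadherins, *Cdh2* and *Cdh4* were both lower in layer 5-like cells. Under 6 of the 7 other ways of filtering or clustering the cells no layer 5-like class was found, so the comparison could not be made there.

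MGE interneuron-like cells migrate into the cortex from the ventral forebrain, and they were set against the mean of the 4 excitatory neuron-like classes. Here 8 of the 27 genes were higher and 10 lower in the interneurons, against 20% and 20.5% of all tested genes. The leading gene was *Pcdh19*, at 268 and 308 CPM in MGE interneuron-like cells, while the excitatory classes ran from 6.89 CPM in upper-layer to 46.5 CPM in layer 5-like cells (3.74 ± 0.08, adjusted p = 1.41e-20 with edgeR). *Pcdh15* was at 250 and 183 CPM, against 2.71 to 101 CPM in the excitatory classes (3.53 ± 0.17). Both were higher in each MGE sum than in every excitatory sum. They were picked as called, and the share among all genes was not computed. *Pcdh17* was at 107 and 117 CPM (1.24 ± 0.08), but layer 5-like cells had as much. *Pcdh11x* (24.7 and 23.5 CPM, 1.27 ± 0.16) and *Pcdh1* (8.10 and 6.53 CPM, 1.59 ± 0.31) were higher at low levels, and *Pcdh8* by 1.20 ± 0.16. Among the δ-protocadherins, 5 of the 9 were thus higher and 2 lower. *Cdh9* (2.55 ± 0.31) and *Cdh22* (3.60 ± 0.29), both under 50 CPM, were the cadherins among the 8. *Cdh9* was at 9.41 and 14.9 CPM in MGE interneuron-like cells, below layer 6-like cells (15.3 and 15.6 CPM).

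Cadherins made up 7 of the 10 genes that were lower in MGE interneuron-like cells. The genes tested held 11 type II and 2 type I cadherins, beside *Cdh13* and *Cdh23*. A split between cadherins and protocadherins was not tested. *Cdh6* was at 2.85 and 3.26 CPM (-3.36 ± 0.26), *Cdh4* at 47.3 and 30.1 CPM (-2.88 ± 0.19), *Cdh10* at 25.4 and 20.5 CPM (-2.52 ± 0.17) and *Cdh13* at 180 and 146 CPM (-2.03 ± 0.16). For *Cdh4* the layer 5-like sums, at 32.9 and 32.6 CPM, lay within the interneuron values, so the difference was not shared by all excitatory classes. The same holds for *Cdh13*, which was lower in the immature class (120 and 132 CPM) than in MGE interneuron-like cells. *Cdh12* (-1.41 ± 0.24) and *Cdh8* (-0.61 ± 0.17) were lower on the mean, but not against every excitatory class. *Cdh12* was at 21.7 and 18.7 CPM in MGE interneuron-like cells, below immature and upper-layer neuron-like cells but above layer 5-like cells (11.1 and 12 CPM). Its layer 6-like sums, at 13.1 and 22.9 CPM, lay on both sides of the interneuron values. *Cdh8* was higher in MGE interneuron-like (153 and 169 CPM) than in layer 6-like cells. *Cdh2*, at 595 and 644 CPM, was lower by -0.45 ± 0.10. Without embryo 4, 6 of the 10 lower calls were made. Without the layer 5-like class, 9 of 30 genes tested were higher and 13 lower, among them all 8 and 10 above. Of all 16623 genes tested in that fit, 3036 were higher and 3206 lower.

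Between the interneuron-like classes, 9 genes were higher in MGE and 4 in CGE interneuron-like cells, against 4.21% and 3.53% of all tested genes. With doublets kept, 2157 and 2311 of 16223 genes were called in these directions, against 663 and 556 of 15755 with doublets removed. CGE interneuron-like cells were the smaller and shallower class, with medians of 4225 and 5754 UMIs. *Pcdh19* was at 268 and 308 CPM in MGE and 85.2 and 85.9 CPM in CGE interneuron-like cells (1.83 ± 0.15). *Pcdh15* was at 250 and 183 against 54.9 and 53.1 CPM (2.08 ± 0.32), and *Pcdh7* at 429 and 416 against 126 and 178 CPM (1.56 ± 0.17). For each of the 3 genes the embryos of one class lay clear of those of the other. These genes were picked as called, and the share among all genes was not computed. *Cdh13* was at 180 and 146 against 29.4 and 53.1 CPM (2.08 ± 0.27), *Cdh8* at 153 and 169 against 53.9 and 45.2 CPM (1.77 ± 0.30) and *Cdh11* at 160 and 190 against 69.5 and 81.4 CPM (1.30 ± 0.13). *Pcdh17* was higher by 1.30 ± 0.15 and *Pcdh8* by 2.45 ± 0.41. *Cdh9*, a type II cadherin known from synapses, had no UMI in CGE interneuron-like cells of either embryo and was at least 7.73-fold higher in the MGE class, taking 3 counts over both embryos as the limit, and it was not called without embryo 5.

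The genes higher in CGE interneuron-like cells were *Cdh4*, at 227 and 159 against 47.3 and 30.1 CPM (-2.24 ± 0.23), *Pcdh9*, at 2673 and 2378 against 1087 and 1030 CPM (-1.18 ± 0.27), *Cdh2*, at 935 and 978 against 595 and 644 CPM (-0.55 ± 0.12), and *Cdh22* (28.4 and 27.1 against 10.7 and 11 CPM). Both type I cadherins with high levels were thus on the CGE side. Without embryo 4 or without embryo 5 from these classes *Cdh4* kept its call, and *Pcdh9*, *Cdh2* and *Cdh22* did not. The levels did not overlap between the classes, but these genes were picked as called and the share among all genes was not computed. Over the alternative runs the differences shrank to -0.28 for *Cdh4*, -0.15 for *Pcdh9*, -0.11 for *Cdh2* and -0.42 for *Cdh22*. DESeq2 called 7 genes in this direction.

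**Figure D3:**
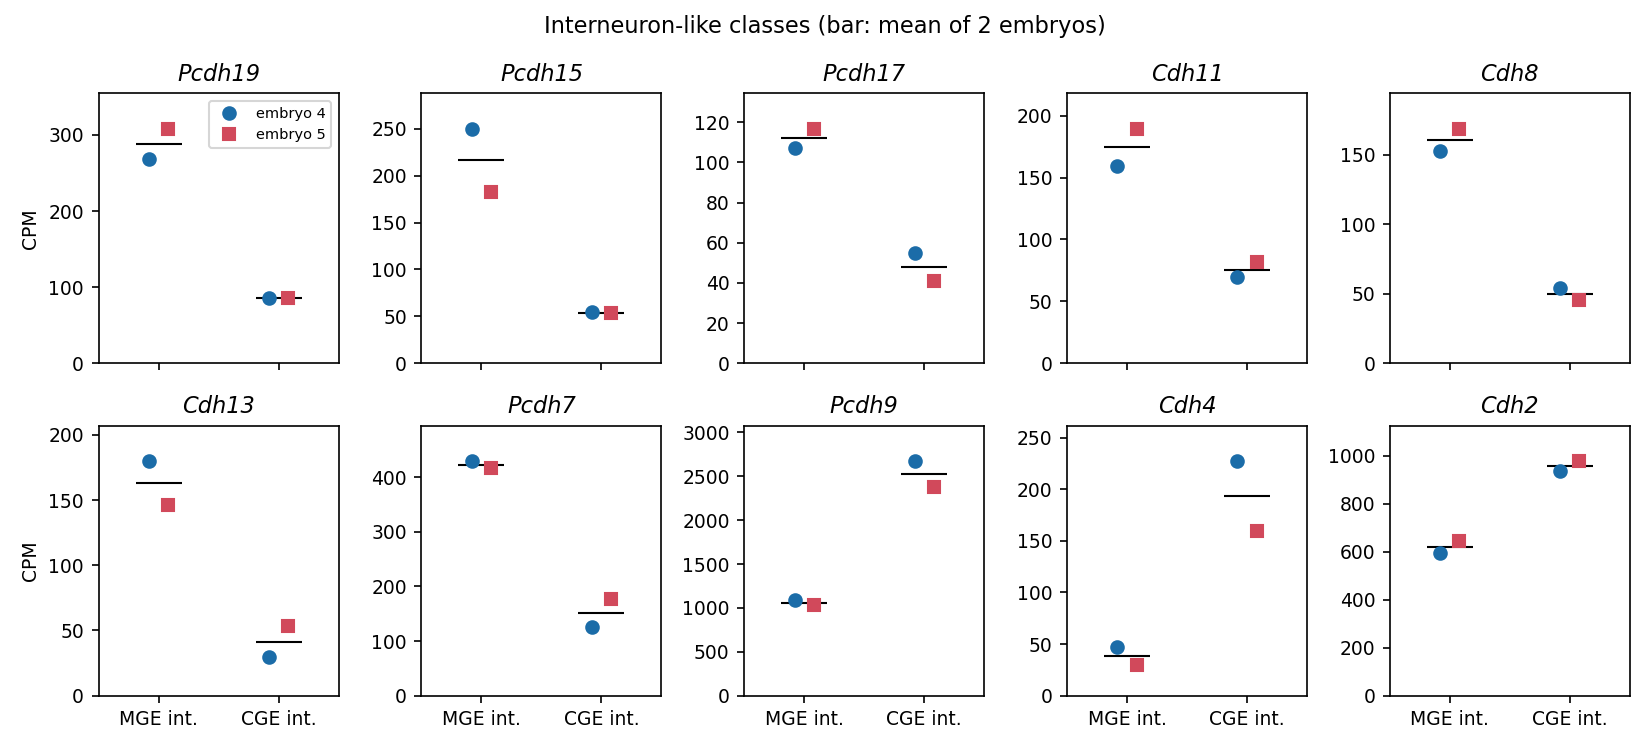
CPM of 10 genes in MGE and CGE interneuron-like cells on linear axes that start at 0, with a circle for embryo 4, a square for embryo 5 and a bar for their mean. *Pcdh19*, *Pcdh15*, *Pcdh17*, *Cdh11*, *Cdh8*, *Cdh13* and *Pcdh7* are higher in the MGE class and *Pcdh9*, *Cdh4* and *Cdh2* in the CGE class. All 10 genes were picked as called in this comparison. The embryos of the classes do not overlap, and the share of such genes among all genes was not computed.

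**Figure D4:**
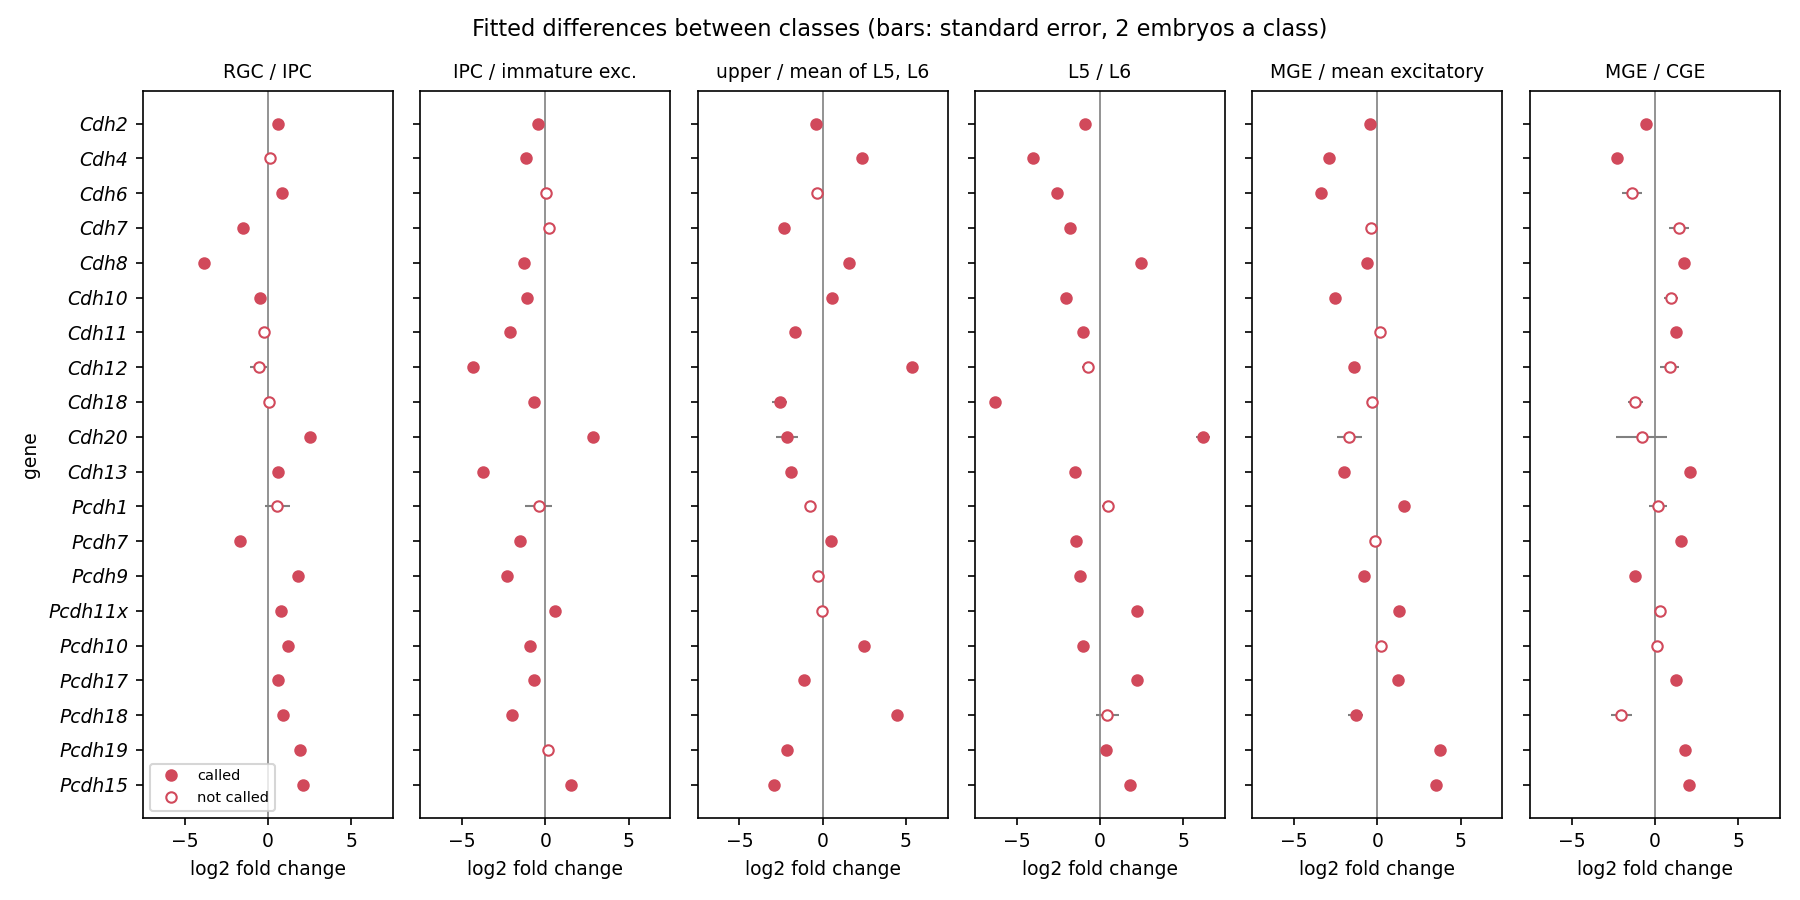
Fitted log2 fold changes of the 20 genes in the 6 comparisons, with bars for the standard error of the fit over all classes. Filled circles are genes called at an adjusted p under 0.05 and open circles the others. The widest spread is seen between layer 5-like and layer 6-like cells, from -6.29 for *Cdh18* to 6.16 for *Cdh20*.

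Cajal-Retzius-like cells, the early neurons of the marginal zone that secrete reelin, and mural-like cells of the vessels were not part of these comparisons, and their levels are given as a description. *Pcdh11x*, a δ-1 protocadherin on the X chromosome, was at 489 and 479 CPM in Cajal-Retzius-like cells and at most 47.6 CPM in any other named class. *Cdh7* (139 and 156 CPM), *Cdh18* (138 and 135 CPM) and *Cdh4* (982 and 1129 CPM) were also highest there, with layer 6-like cells next for the first 2 and upper-layer neuron-like cells next for *Cdh4*. In mural-like cells, *Pcdh18* was at 401 and 353 CPM against at most 21.8 in the other classes, and *Pcdh1* at 57.8 and 52.1 against at most 10.3. *Cdh11* was at 345 and 377 CPM in mural-like cells, close under layer 6-like cells. A fibroblast-like cluster had 1 cell in embryo 4 and 48 in embryo 5 and stayed out of the fit, with 502 CPM of *Cdh11* and 87 of *Pcdh18* in embryo 5.

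The 15 genes that did not reach 50 CPM in both embryos of a class had class means of at most 35.2 CPM. Among them were *Pcdh8*, *Cdh22*, *Cdh24*, *Cdh9*, *Pcdh20*, *Cdh23* and *Pcdh12*, which were tested. The 8 that were not tested in the main fit were *Cdh1*, *Cdh3*, *Cdh5*, *Cdh15*, *Cdh16*, *Cdh17*, *Cdh19* and *Cdh26*, with 3 to 57 UMIs each over all 11 classes. *Cdh1*, *Cdh5* and *Cdh15* were tested without the layer 5-like class. There *Cdh15* was called lower in upper-layer than in layer 6-like cells (-3.56 ± 0.91), at only 1.14 and 1.58 CPM in the latter. *Cdh1* (E-cadherin) and *Cdh3* (P-cadherin) belong to epithelia, *Cdh15* to muscle and *Cdh5* (VE-cadherin) to endothelium, a cell type that no class of these cells stood for. *Cdh24* was at 6.35 to 18.1 CPM in every class but the haemoglobin-led one, and it was called in none of the 6 comparisons.

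The genes that work with the family were followed as 4 lists. Their counts are to be read against the shares of all tested genes given above for the same comparisons. No list was tested as a set. Of the 10 catenins, 9 were tested, and 5 were higher and 3 lower in RGC-like than in IPC-like cells. *Pkp4*, a relative of p120-catenin, was at 157 and 174 CPM in RGC-like against 45.3 and 45.1 in IPC-like cells (1.81 ± 0.11), *Ctnnd2* (δ-catenin) was higher by 1.48 ± 0.12 and *Ctnna2*, the α-catenin of neurons, lower by -1.48 ± 0.24. From IPC-like to immature neurons the α-catenins parted, as *Ctnna1* was higher in IPC-like cells (1.72 ± 0.13) and *Ctnna2* in the neurons (-1.98 ± 0.25), with 3 catenins higher and 5 lower in IPC-like cells. Against the deep classes, 4 were higher and 2 lower in upper-layer cells. *Ctnna3* was at 447 and 453 CPM in layer 6-like, 62.1 and 56.9 in layer 5-like and 23.7 and 24.0 in upper-layer cells, and the layer 5-like class was lower by -3.02 ± 0.13 than the layer 6-like class, where 1 catenin was higher and 3 were lower. MGE interneuron-like cells had 1 catenin higher (*Pkp4*, 1.80 ± 0.08) and 3 lower than the excitatory classes, and 1 higher and 1 lower than CGE interneuron-like cells. The lower one was *Ctnna3* (-3.28 ± 0.34), which was at 0.54 and not called with doublets kept.

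Of the 20 other members of the cadherin superfamily (Fat, Dachsous, Celsr, calsyntenin, desmosomal and Cdhr genes and *Ret*), 11 were tested. In RGC-like against IPC-like cells 4 were higher and 5 lower, with *Fat4* (2.07 ± 0.12) and *Fat1* (1.28 ± 0.13), giant cadherins known from planar polarity, higher and *Celsr3* lower (-3.31 ± 0.26). Between IPC-like and immature cells 2 were higher and 8 lower in IPC-like cells, *Fat1* (1.93 ± 0.15) and *Celsr1* (1.77 ± 0.11) being the higher ones and *Fat3* (-2.05 ± 0.17) the leading lower one. In upper-layer cells 7 were higher and 1 lower, and *Fat4* was the lower one (-1.22 ± 0.10). In MGE interneuron-like cells 3 were higher and 6 lower than in the excitatory classes, and *Fat4* was also lower than in CGE interneuron-like cells (-2.19 ± 0.19), the only call of the list there. Between the deep classes 1 was higher and 4 lower in layer 5-like cells.

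All 10 genes of shedding and clearance were tested, which hold the sheddases and γ-secretase that cut cadherins, *Cbll1* (Hakai) and the Numb proteins. None was higher and 6 were lower in RGC-like than in IPC-like cells, with *Mmp24*, a protease that cuts N-cadherin, at -2.80 ± 0.25 and *Numbl* at -2.39 ± 0.11. Between IPC-like and immature cells 2 were higher and 1 lower, and *Mmp24* was again lower on the progenitor side (-2.22 ± 0.15). In the remaining comparisons 2 to 4 genes of this list were called, except for the interneuron classes, where edgeR called 0 of the 10. Between those classes only 4.21% and 3.53% of all tested genes were called as higher and lower. Of the 11 WAVE complex and phosphatase partners, all were tested. In RGC-like against IPC-like cells 4 were higher and 2 lower, with *Cyfip2* at -1.51 ± 0.09, and between IPC-like and immature cells 4 were higher and 3 lower, with *Wasf2* at 0.96 ± 0.10 and *Wasf1* at -0.73 ± 0.11. In MGE interneuron-like against excitatory cells 6 were higher and 3 lower, from -0.47 ± 0.08 for *Nckap1* to 0.58 ± 0.12 for *Wasf3*. Against CGE interneuron-like cells edgeR called 0 of the 11, beside the same low shares of all tested genes.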

How the data were processed

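Cells of the dissected cortex of 2 embryos were freed with papain and sequenced with the 10x Genomics single cell 3′ v3.1 kit. The authors deposited raw counts of UMIs per gene and barcode, made with Cell Ranger against mm10 (GRCm38). The submitters' processing notes give version 7.0.0 and the matrix headers 7.1.0, and whether reads in introns were counted is not given in the sources used here. Since such reads and gene length set the level of a gene, levels of different genes were not tested against each other. The sum over the 35 genes gives most weight to genes with high levels.

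A barcode was kept if 1000 or more genes were detected and mitochondrial UMIs did not exceed 10%, and 947 and 1052 likely doublets, scored against simulated ones, were removed. The cells of both embryos were clustered (2000 variable genes, 30 principal components, 20 neighbours, Leiden resolution 1, leidenalg 0.10.2) without the 35 genes. A cluster was named where the mean log2 ratio of a cell type's markers over all other cells passed 0.5 and lay 0.25 above the next type, with a marker or cell cycle genes among its top 10 genes, a condition added after the clusters were seen. UMIs were summed per class and embryo and tested with edgeR 4.0.16 (TMM, quasi-likelihood, its filter on low counts) under R 4.3.3, a script tested on simulated data. The 2 sums of a class come from 2 animals, but sums of different classes share an animal. The p-values rest on the spread between these embryos, pooled over all classes. Across 55 pairs of classes the correlation of the embryos' deviations ran from 0.005 to 0.218 (median 0.056), and a fit with the embryo as a replicate block is among the alternatives, as are DESeq2 1.42.0 (with a local dispersion trend, set after the data were seen, as its parametric trend converged or not with the order of the classes), other filters and clusterings, thinning and leaving out each embryo. The members, lists and tests were chosen with earlier results of these data known. Genes with at least 50 CPM in a named class in both embryos are named with values, and of each partner list up to 4 called genes per comparison, those with the largest differences. Some genes are not reported here.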

Additional observations from a re-analysis of the deposited data

Results flagged for a closer look

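In 3 of the 8 unnamed clusters, 8 values lay above the level of the same gene in every named class, and these clusters entered no comparison. The cluster led by *Il1rapl2*, with 190 and 236 cells in embryos 4 and 5, had 633 CPM of *Cdh10* (mean of 542 and 725), 156 CPM of *Pcdh10* (133 and 178) and 114 CPM of *Cdh6* (110 and 119). The cluster led by *Nts*, with 181 and 225 cells, had 969 CPM of *Cdh12* (733 and 1205), 389 CPM of *Cdh10* (363 and 415), 329 CPM of *Pcdh15* (252 and 406) and 134 CPM of *Pcdh10* (134 and 133). In the cluster led by *Tafa1*, with 533 and 603 cells, *Pcdh9* was at 4289 CPM (4686 and 3892). No differences between groups or outlying samples could be looked for, as there is 1 group of 2 embryos.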

How the results depend on the processing

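Of 110 calls of a gene in a comparison, 72 were made in every alternative run, and of 1591 alternative values 1452 kept their direction and call, 112 lost the call and 27 reversed. Peak levels moved little, with 191 of 194 within 1.5 times. The cause was not tested for any of the changes below. In RGC-like against IPC-like cells the lower calls ran from 3 to 5 without an embryo, and were 3 with at least 500 or 2000 genes a cell, at most 5% mitochondrial UMIs or resolution 2. The higher calls of IPC-like against immature cells were 1 with doublets kept and 2 with thinned cells. Upper-layer against deep classes had 5 higher calls at 5% mitochondrial UMIs and 8 lower calls with thinned cells. The lower calls of MGE interneuron-like against excitatory cells ran from 6 to 8 without an embryo, and those against CGE interneuron-like cells were 1 without either and 7 with DESeq2's Wald test, which put 42.8% of all called genes there on the higher side against 54.4% with edgeR. That test, which kept more genes, moved the median of all genes in MGE interneuron-like against excitatory cells from 0.011 to 0.158. Without an embryo, the lone sum of a class is assumed to vary like the other classes. In these runs fewer of all tested genes were called too, in both directions of each comparison.

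Most reversals fell in upper-layer against deep classes, where most other clusterings gave layer 6-like cells as the only deep class. There *Cdh10* went to -1.27 with at least 2000 genes, -0.24 at 5% mitochondrial UMIs, -0.67 with doublets kept, -0.53 with the 35 genes in the clustering and -0.43 without the layer 5-like class. In the same order *Pcdh7* went to -0.59, -0.25, -0.25, -0.20 and -0.19. *Pcdh17* went to 0.77, 0.022, 0.12 and 0.0031 in the first 4 of these. *Cdh20* went to 0.90 at 5% mitochondrial UMIs, 0.96 at resolution 0.5, 0.99 with the 35 genes in the clustering and 0.95 without the layer 5-like class. With 2000 genes and at 5% mitochondrial UMIs, *Cdh23* went to 0.68 and 0.82 and *Cdh4* to -0.24 and -0.056. With doublets kept, *Cdh13* went to -0.15 in RGC-like against IPC-like cells, and *Pcdh11x* and *Pcdh15* to -0.18 and -0.39 in IPC-like against immature cells. Of the partner genes, *Ctnna3* went to 0.54 in MGE against CGE interneuron-like cells and *Celsr1* to 0.38 in MGE interneuron-like against excitatory cells with doublets kept, and *Numbl* to -0.088 in IPC-like against immature cells with at least 2000 genes. With at least 500 genes, *Pcdh10* and *Pcdh19* went to 0.010 and -0.18 in layer 5-like against layer 6-like cells.

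With the embryo as a replicate block, the counts were those of the report in each comparison except for 15 lower calls in upper-layer against deep classes, and 18 of the 55 pairs of classes had a correlation of deviations over 0.1. Layer 5-like against layer 6-like cells could not be compared in 6 of the 7 other filters and clusterings, and the interneuron-like classes not at resolution 0.5. CGE interneuron-like cells had medians of 4225 and 5754 UMIs, and whether this limited what could be called there was not tested.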

Other observations

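Other unnamed clusters held members at levels that the named classes did not show or showed in few. In the cluster led by *Zfhx3*, with 544 and 508 cells in embryos 4 and 5, *Pcdh15* was at 395 and 179 CPM, *Pcdh11x* at 172 and 108, *Cdh18* at 150 and 80.7 and *Cdh22*, otherwise seen mainly in CGE interneuron-like cells, at 32.2 and 26.7 CPM. The first 3 were lower in embryo 5 than in embryo 4. *Cdh13* was at 1629 and 1725 CPM in the cluster led by *Kcnq5* and at 1581 and 1654 CPM in that led by *Il1rapl2*, between the layer 5-like and layer 6-like levels.

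*Cdh5*, the VE-cadherin of vessels, was at most 1.96 CPM in the 11 classes. With doublets kept, an endothelial-like class of 35 and 41 cells was found, with 219 and 478 CPM of *Cdh5* (49 and 189 UMIs). In the same cells *Cdh2* was at 1746 and 1307 CPM, *Cdh13* at 505 and 379 and *Pcdh17* at 121 and 101 CPM. *Pcdh9*, at 1407 and 301 CPM there, differed between the embryos, and the part of doublets in these levels was not tested.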
